A study of Mus musculus with 2 samples.

Results

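Zinc-finger transcription factors of development were followed here as a set of 46 genes, drawn from the Gata, Zic, Sall, Osr, Gli, Glis, Prdm, Sp, Egr, Fezf, Bcl11 and Ovol families together with Wt1, Insm1, Bnc1 and Zfpm1. A gene was counted as carrying a listed H3K27me3 region when a row of the deposited region list named it by its symbol. By this rule 22 of the 46 genes had a listed region and 24 had none, whereas 3.90% of all 21900 protein-coding genes in RefSeq were named by the list. The 22 genes were named by 29 of the 2017 listed regions. The set was chosen by gene family with earlier results of these data known, so the difference between these shares is given as a description.

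The cells were rib chondrocytes of 11 wild-type CD1 mice at postnatal day 2.5, pooled and cultured overnight in medium with 5% serum, from which 1 H3K27me3 ChIP library and 1 input library (2% of the chromatin) were made. The data analysed here held no replicates, no second condition and no measurement of RNA. Reads mapped to the mouse build mm9 are called tags, and a region is a stretch that QuEST called from the smoothed profile of ChIP tags against input, with no listed profile lower than just over 8. Because the sample was a pool of cells, a mark on all cells of one kind and a weaker mark on many cells cannot be told apart. Of 20 chondrocyte marker genes 1 was named by a region (5%, beside 3.90% of all protein-coding genes). This was Ihh, the hedgehog ligand of prehypertrophic chondrocytes. Col2a1, Acan and Sox9 were named by none. The list named 2 of 12 muscle markers (Pax3 and Pax7), 1 of 12 fibroblast and perichondrium markers (Col1a1), 1 of 11 osteoblast markers (Sost), 1 of 12 blood markers (Cd3e) and 1 of 12 endothelial markers (Flt1). Lists of 11 to 20 genes are too few for these counts to be read against the share of 3.90%. A region at a marker gene does not show which cells were present, and the part of other cell types in the results was not tested.

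H3K27me3 is placed on histone H3 by PRC2 and is found over silent genes of development, often at gene starts rich in CpG dinucleotides. Zinc-finger factors read DNA through short loops of protein folded around a zinc ion. The families studied here set up blood, heart and gut (GATA), the neural tube (ZIC), kidney and limb (SALL and OSR), the hedgehog response (GLI), neurons and germ cells (PRDM) and epithelia (OVOL and BNC). Chondrocytes use the hedgehog response, while most of the other programmes belong to other tissues.

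The share of listed genes differed from family to family. All 4 ZIC genes and both OVOL genes had a region, as did Bnc1. Of the GATA genes 3 of 6 had a region (Gata2, Gata4 and Gata6), of the PRDM genes 3 of 7 (Prdm12, Prdm13 and Prdm14), of the EGR and WT1 genes 2 of 5 (Egr2 and Wt1) and of the GLI and GLIS genes 2 of 6 (Gli1 and Glis1). Sall1, Osr1, Sp8, Fezf2 and Bcl11b were the only listed genes of their families within the set. Sp6, an SP gene outside the set, was also named by the list. No region named Gata1, Gata3, Gata5, Zfpm1, Sall2, Sall3, Sall4, Osr2, Gli2, Gli3, Glis2, Glis3, Prdm1, Prdm6, Prdm8, Prdm16, Sp5, Sp9, Egr1, Egr3, Egr4, Insm1, Fezf1 or Bcl11a. The most distant gene named by the list lay 4979 bp from its region, and no region held fewer than 20 ChIP tags. A weaker or more distant mark at these 24 genes was therefore not detectable.

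**Figure D1:**
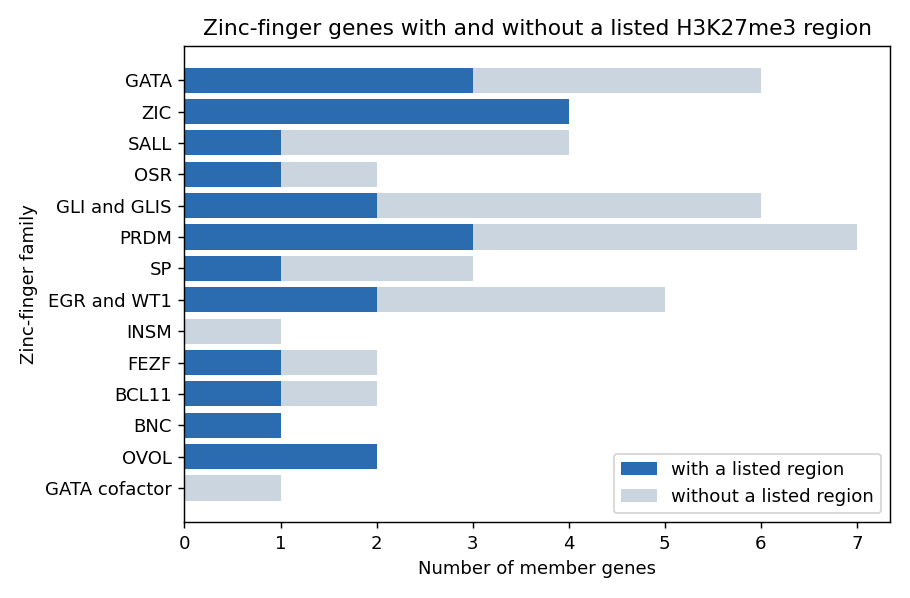
Bars give the number of member genes (x axis) in each zinc-finger family (y axis), in blue for genes named by a listed H3K27me3 region and in grey for genes that no region named. All 4 ZIC genes were listed, against 3 of 6 GATA genes and 3 of 7 PRDM genes.

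The regions of these genes were longer than those of other genes at the median but not denser. Their 29 regions measured 1608 bp at the median (range 434 to 5544 bp), against 1094 bp (337 to 8279 bp) for the 1255 other regions that named a gene. The interquartile range of the 29 was 921 to 1957 bp and that of the other regions 695 to 1712 bp, so that the distributions largely overlapped. ChIP tags per kb had medians of 53.3 and 54.5. Input tags per kb had medians of 6.94 and 6.32. A length of 2000 bp or more was reached by 6 of the 29 regions (20.7%) and by 216 of the others (17.2%). These values come from 1 library, in which regions are not replicates, and no test was made. Because density hardly varied (46.2 to 62.2 ChIP tags per kb over the 29 regions), ChIP tag numbers mainly followed region length.

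**Figure D2:**
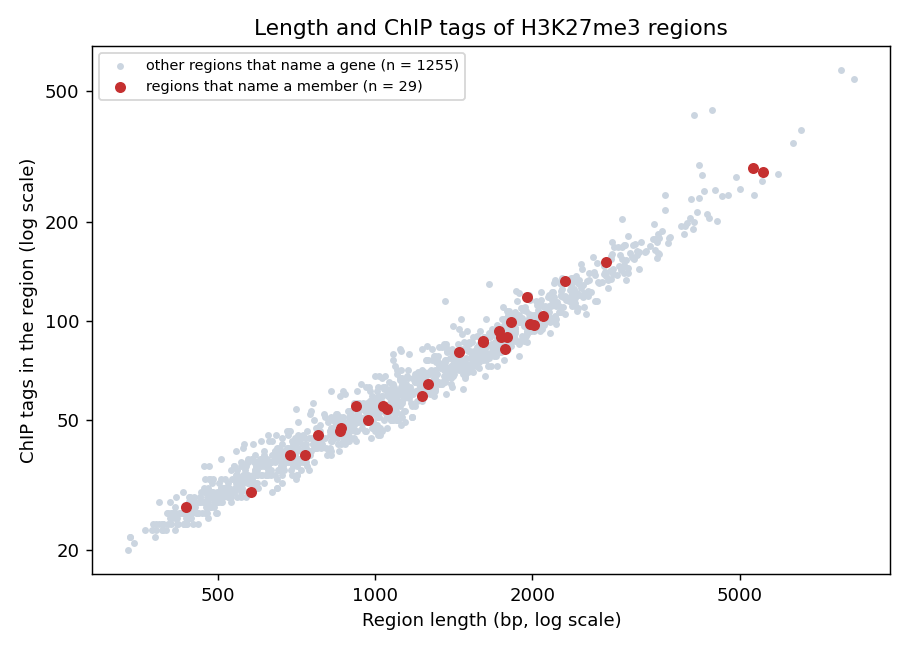
Each point is 1 region, with its length in bp on the x axis and its ChIP tags on the y axis, both on log scales; red points are the 29 regions that name a zinc-finger gene of the set and grey points are the 1255 other regions that name a gene. The red points follow the same band as the grey points, with the Prdm12 regions of 291 and 284 tags at the upper end.

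PRDM genes carried the most marked sequence of the set, most of it at Prdm12, a regulator needed for the development of pain-sensing neurons. Prdm12 had 3 regions on chromosome 2, at chr2:31487200-31492486, chr2:31493348-31498891 and chr2:31499246-31501202 (mm9). The first of these was longer than 99.4% of the other regions that named a gene and the next longer than 99.6%, and gaps of 861 and 354 bp separated the 3 regions. The regions held 291, 284 and 118 ChIP tags against 48, 39 and 12 input tags. Together they covered 12788 bp, the third-largest total of the 922 genes named by the list, and 26.2% of the marked sequence of the whole set. Over the 3 regions the ratio of ChIP to input tags was 7.0 (95% Clopper-Pearson interval 5.66 to 8.73). This interval and all those given below cover counting error only, treat tags as independent and take no account of library depth, which is unknown. The middle region lay across the 5′ end of Prdm12, from 2209 bp upstream to 3334 bp inside the gene.

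Prdm14, a factor of germ cells and pluripotent cells, had 2 regions on chromosome 1 that were 166 bp apart. The region over the 5′ end (chr1:13116288-13117515, mm9) held 59 ChIP and 5 input tags, a ratio of 11.8 (4.78 to 37.7). The region further into the gene (chr1:13114509-13116121) held 86 and 20, a ratio of 4.30 (2.62 to 7.39). These intervals overlap. Prdm13, which acts in the spinal cord and cerebellum, had 1 short region of 578 bp that ended 1110 bp upstream of the gene. It held 30 ChIP and 8 input tags, a ratio of 3.75 (1.68 to 9.47).

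Gene starts covered by a region were found for 5 genes of the set, Prdm12, Prdm14, Gata4, Fezf2 and Ovol1. Sequence windows at the start were at hand from RefSeq (GRCm38.p6) for Prdm12 and Fezf2, and are shown because a listed region covered the 5′ end of these genes. The windows were matched by gene name and not by position, since the regions are on mm9. Whether the printed bases lie inside the regions was therefore not checked. Each line gives the 250 bases before the start, 5′ to 3′ on the strand of the gene, with every CG dinucleotide in capitals. The Prdm12 window is chr2:31639787-31640036 (plus strand) and the Fezf2 window is chr14:12345866-12346115 (minus strand).
Prdm12: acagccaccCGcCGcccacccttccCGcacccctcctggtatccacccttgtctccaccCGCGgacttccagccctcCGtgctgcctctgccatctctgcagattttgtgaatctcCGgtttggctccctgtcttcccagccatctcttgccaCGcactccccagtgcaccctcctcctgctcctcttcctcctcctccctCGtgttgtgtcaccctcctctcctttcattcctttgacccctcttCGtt
Fezf2: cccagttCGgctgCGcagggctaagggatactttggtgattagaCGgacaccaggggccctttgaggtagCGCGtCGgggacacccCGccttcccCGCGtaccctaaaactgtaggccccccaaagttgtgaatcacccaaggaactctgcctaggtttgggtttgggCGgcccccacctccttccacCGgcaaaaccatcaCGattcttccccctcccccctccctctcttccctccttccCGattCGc
The Prdm12 stretch held 10 CG dinucleotides and the Fezf2 stretch 14. Fezf2, which specifies corticospinal neurons, had a single region of 1450 bp on chromosome 14 (chr14:13177966-13179415, mm9) with 80 ChIP and 9 input tags, a ratio of 8.89 (4.46 to 20.1). Its profile reached a height of 10.4, higher than in 92.0% of the other regions that named a gene. The related Fezf1 was not named.

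GATA genes with a region were Gata4 and Gata6, which act in heart and endoderm, and Gata2, which acts in blood progenitors. Gata4 had the most regions of any gene in the set, with 4 regions between chr14:63858535 and 63869434 (mm9) that covered 5300 bp of this stretch. From the side of the gene body to the far upstream side, the regions held 55, 82, 89 and 46 ChIP tags against 7, 15, 6 and 5 input tags. The region with 82 ChIP tags lay over the 5′ end, from 325 bp upstream to 1450 bp inside, and 1486 bp separated it from the next region upstream. Over all 4 regions the ratio was 8.24 (5.73 to 12.2).

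Gata6 had 2 regions on chromosome 18, at chr18:11047682-11049778 and chr18:11053656-11054711 (mm9), on either side of its 5′ end. The upstream region held 103 ChIP and 4 input tags, and the region inside the gene held 54 and 4. The start itself was in neither region, since the upstream region ended 2730 bp before the 5′ end and the other began 1148 bp after it. The ratio over both was 19.6 (9.72 to 46.3). Gata2 had 1 region of 968 bp that ended 2633 bp upstream, with 50 ChIP and 6 input tags and a ratio of 8.33 (3.57 to 23.8). The interval of Gata6 overlapped those of Gata4 and Gata2.

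ZIC genes are arranged as neighbouring pairs, Zic1 with Zic4 on chromosome 9 and Zic2 with Zic5 on chromosome 14, and act in the dorsal neural tube and cerebellum. A single region, chr9:91264312-91266136 (mm9), named both Zic1 and Zic4 and was the only region to name a pair of genes of the set. It began 502 bp inside Zic4 and lay 3675 bp upstream of Zic1, whose 5′ end was 3173 bp from that of Zic4 by the distances in the list. It held 99 ChIP and 5 input tags, a ratio of 19.8 (8.21 to 62.3), and its height of 10.3 exceeded that of 90.0% of other gene regions.

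At the other pair each gene had a region of its own, and 18235 bp lay between the regions. The region of Zic5 (chr14:122861897-122863504) was inside the gene, 1376 bp from its 5′ end, with 87 ChIP and 14 input tags. The region of Zic2 (chr14:122881740-122883720) lay 2190 bp beyond the 3′ end, with 98 and 16. The ratios were close to each other, 6.21 for Zic5 (3.51 to 11.8) and 6.13 for Zic2 (3.59 to 11.1). Both intervals overlapped that of the region shared by Zic1 and Zic4.

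SALL and OSR genes were each represented by 1 member. Osr1, a factor of the intermediate mesoderm and of connective tissue, had a region of 2770 bp inside the gene (chr12:9581697-9584466, mm9), longer than 92.7% of other gene regions. It held 151 ChIP and 10 input tags, a ratio of 15.1 (7.99 to 32.1), and began 449 bp from the 5′ end. Sall1, needed for kidney development, had a region of 2016 bp that lay 3507 bp upstream, with 97 ChIP and 16 input tags and a ratio of 6.06 (3.55 to 11.0). The paralogues Osr2, Sall2, Sall3 and Sall4 were not named.

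Of the 3 Gli genes, the hedgehog effectors, 1 was listed. Gli1, itself a target of hedgehog signalling, was named by a region 1754 bp beyond its 3′ end and 13451 bp from its 5′ end. This region lay inside the neighbouring gene Arhgap9, which was also named, and held 89 ChIP and 9 input tags, a ratio of 9.89 (4.98 to 22.3). Counted only for its nearest gene it would not belong to Gli1. Gli2 and Gli3 had no region. Glis1 had a region of 734 bp inside the gene, 12957 bp from its 5′ end. With 39 ChIP and 12 input tags, Glis1 had the lowest ratio of the 22 genes, 3.25 (1.67 to 6.82), and an input of 16.3 tags per kb, the highest of the 29 regions.

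The SP, EGR and WT1 proteins bind related GC-rich sites. Wt1, a regulator of kidney and gonad, had a region of 1263 bp inside the gene, 4873 bp from the 5′ end, with 64 ChIP and 3 input tags. The same region also named AI314831 and lay 4892 bp upstream of that gene. The ratio of 21.3 at Wt1 was the highest of the 22 genes but rested on 3 input tags (6.98 to 106). Egr2, which acts in hindbrain segments and in Schwann cells, had a region of 1728 bp that lay 3568 bp upstream, with 93 and 12 tags and a ratio of 7.75 (4.23 to 15.5). Egr1, Egr3 and Egr4 were not named. Sp8, a factor of the limb ectoderm, had a region of 859 bp inside the gene with 47 and 3 tags, a ratio of 15.7 (5.04 to 78.7).

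Both OVOL genes, which act in epithelia, and Bnc1 were listed. Ovol1 had a region of 2310 bp over its 5′ end on chromosome 19 (chr19:5558274-5560583, mm9) with 132 ChIP and 21 input tags, a ratio of 6.29 (3.95 to 10.5). Ovol2 had a region of 686 bp that lay 4113 bp upstream, with 39 and 2 tags, a ratio of 19.5 with a wide interval (5.05 to 167). Bnc1, a factor of basal keratinocytes and germ cells, had 2 upstream regions 1244 bp apart, at 2061 and 4343 bp from the gene, with 55 and 45 ChIP tags against 11 and 6 input tags. Its ratio was 5.88 (3.50 to 10.5). Bcl11b, a factor of T cells and cortical neurons, had the shortest region of the set, 434 bp with 27 ChIP and 4 input tags, 26129 bp into the gene. Its ratio was 6.75 (2.35 to 26.5), and its paralogue Bcl11a was not named.

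Position relative to the gene was compared over the 30 pairs of a region and a gene of the set. The 5′ end itself lay in the region in 5 pairs (16.7%), against 88 of the 1505 pairs of other genes (5.85%). Regions inside the gene but off the 5′ end made up 11 pairs (36.7%) and 51.2% of the pairs of other genes, and upstream regions 12 pairs (40.0%) and 26.5%. Only Gli1 and Zic2 were named by a region beyond the 3′ end (6.67%, against 16.5%). Within 5000 bp of the 5′ end lay 26 of the 30 pairs (86.7%), against 64.5% of the others, the exceptions being Bcl11b, Gli1, Glis1 and Zic2. Within 2500 bp the shares were closer, 14 pairs (46.7%) against 40.5%. The list named no gene more than 4979 bp from a region. Every upstream pair and every pair over the 5′ end was therefore within 5000 bp by construction, and the shares at that distance partly repeat the position classes. The lengths of the genes, which limit how far inside a region can lie, were not taken into account. A region that overlapped the gene was found for 13 of the 46 genes, beside 2.53% of all protein-coding genes, and 12 genes had a region at most 2500 bp from the 5′ end, beside 2.20%.

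**Figure D3:**
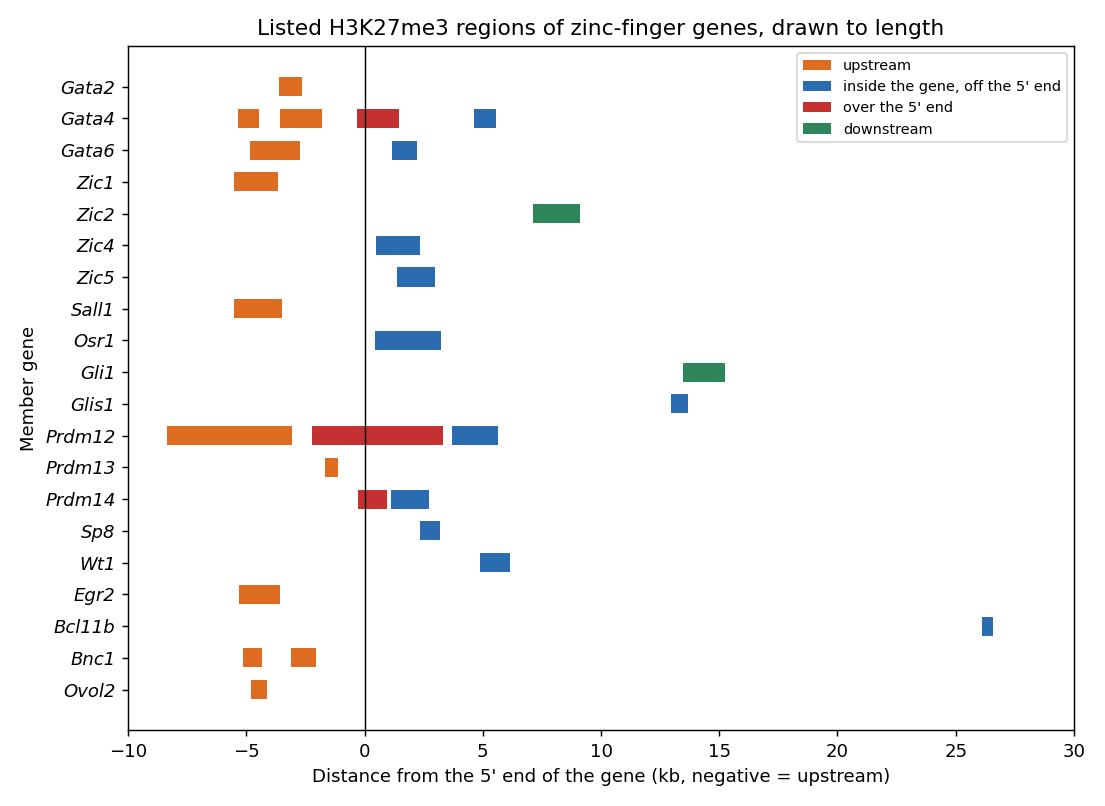
Each bar is a listed H3K27me3 region, drawn to its length along the distance from the 5′ end of its gene in kb (x axis, negative values upstream), with 1 row for each of 20 genes; Fezf2 and Ovol1, whose only region covers the 5′ end at an unknown offset, are left out. Most bars lie within 5000 bp of the 5′ end, and Prdm12 is covered from 8358 bp upstream to 5646 bp inside except for the gaps between its 3 regions.

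Most of the listed genes had a single region, 17 of 22, and 5 had several (Gata4, Gata6, Prdm12, Prdm14 and Bnc1). Among the 900 other genes with a region, 36.8% had several, against 22.7% of the zinc-finger genes. The marked length per gene had a median of 1804 bp, compared with 1523 bp for the other genes. ChIP tags per gene ranged from 27 at Bcl11b to 693 at Prdm12.

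Pooled over the 29 regions, the ratio was 7.80 (6.95 to 8.77), from 2589 ChIP tags and 332 input tags, and the 1255 other regions that named a gene gave 7.67 (7.52 to 7.82). The interval of the set includes the value of the other regions. Without Prdm12, which held more tags than any other gene of the set, the ratio was 8.14. The ratios of single genes ran from 3.25 at Glis1 to 21.3 at Wt1, with a median of 8.0. The interval lay wholly above 7.67 for 4 of the 22 genes (Gata6, Osr1, Zic1 and Zic4), which rest on 3 loci because Zic1 and Zic4 share their region, and for 8.24% of all 922 listed genes. It lay wholly below for Glis1 alone, and for 6.18% of all listed genes. For the other 17 genes it included 7.67. Input was low at the genes with high ratios, with 8 tags at Gata6, 10 at Osr1 and 5 at the region of Zic1 and Zic4, so their order is not settled by these counts. Some pairs of genes had intervals that did not overlap, such as Gata6 (9.72 to 46.3) with Prdm12 (5.66 to 8.73) or with Glis1 (1.67 to 6.82). These are examples from many possible pairs, and no pair was tested.

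**Figure D4:**
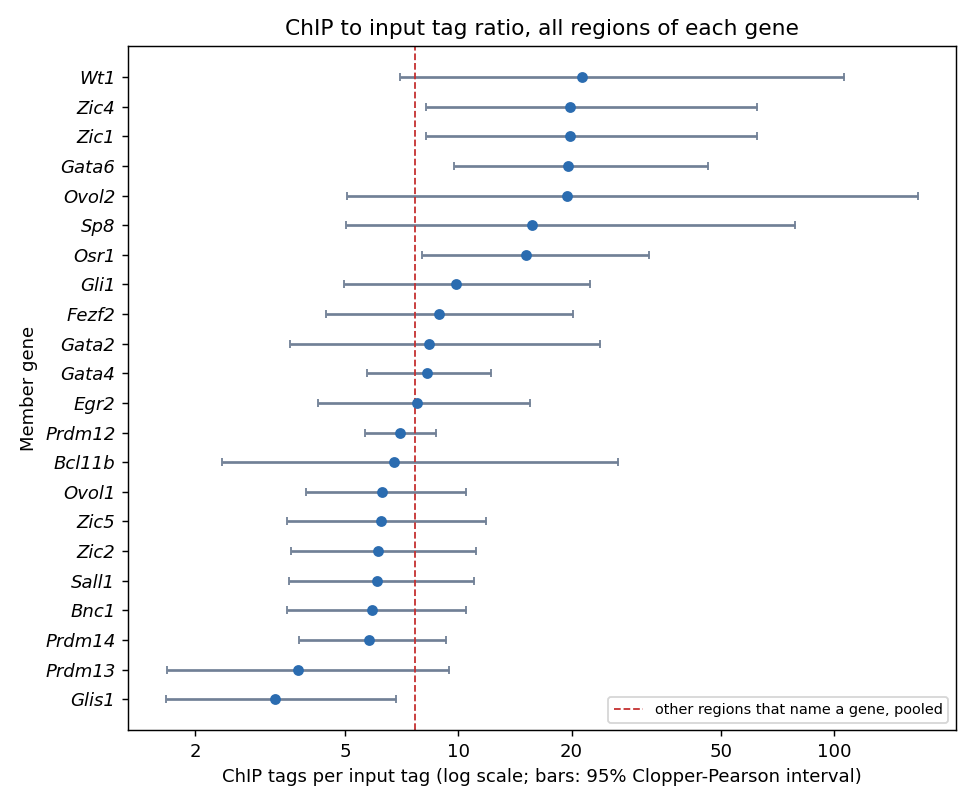
Points give the ratio of ChIP to input tags over all regions of each gene (x axis, log scale) for the 22 listed genes (y axis, ordered by ratio), with 95% Clopper-Pearson intervals as bars; the dashed line marks 7.67, the pooled ratio of the other regions that name a gene. Gata6, Osr1, Zic1 and Zic4 lie above the line with their whole interval and Glis1 below it.

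Profile heights lay close to the listing limit. The median ChIP height of the 29 regions was 8.75, from 8.16 to 10.8, and that of the other regions that named a gene was 8.66, with a maximum of 23.7. A height under 9 was found in 18 of the 29 regions (62.1%) and in 816 of the 1255 other regions that named a gene, a similar share. A height of at least 10 was reached in 3 of the 29 regions (10.3%), against 161 of the 1255 other regions that named a gene (12.8%). The 3 regions were at Prdm12 (height 10.8), Fezf2 (10.4) and the one shared by Zic1 and Zic4 (10.3). They name 4 of the 46 genes, beside 0.708% of all protein-coding genes, listed or not. The deposited tag enrichment sets the input to at least 9.20 tags per kb. At that floor were 24 of the 29 regions (82.8%) and 76.0% of the other regions that named a gene. Measured tags were used here for that reason. By the deposited enrichment the 2 regions of Gata6 had 5.34 and 5.56, that of Osr1 5.92 and that shared by Zic1 and Zic4 5.90. The median of the other regions that named a gene was 5.67, so the high ratios of these genes on measured tags were not seen in that measure.

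The sequence at gene starts was compared between genes with and without a region, because CpG-rich starts are where PRC2 is commonly found. Windows of 300 bases around the RefSeq start (250 before and 50 after) were matched for 30 of the 46 genes, 14 with a listed region and 16 without. The CpG count had a median of 19.5 in the genes with a region, from 8 at Prdm13 and Zic4 to 50 at Bnc1. In the genes without one it had a median of 23.5, from 4 at Gata1 to 39 at Gli3. All 17492 protein-coding genes with a window had a median of 13, and the 628 other protein-coding genes with a listed region had a median of 17 (interquartile range 9.5 to 26). The ranges of the listed and unlisted genes overlapped. Zic1 and Zic4, which share a region, differed at their starts, with 31 and 8. The extremes of the unlisted genes are shown for comparison with Prdm12 and Fezf2, again as the 250 bases before the start with CG in capitals, from chrX:7967911-7968160 (Gata1, minus strand) and chr13:15463473-15463722 (Gli3, plus strand) of GRCm38.p6.
Gata1: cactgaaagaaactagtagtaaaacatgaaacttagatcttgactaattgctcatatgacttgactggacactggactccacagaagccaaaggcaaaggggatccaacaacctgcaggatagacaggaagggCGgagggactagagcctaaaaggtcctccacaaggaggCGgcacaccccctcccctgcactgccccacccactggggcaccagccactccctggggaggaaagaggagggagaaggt
Gli3: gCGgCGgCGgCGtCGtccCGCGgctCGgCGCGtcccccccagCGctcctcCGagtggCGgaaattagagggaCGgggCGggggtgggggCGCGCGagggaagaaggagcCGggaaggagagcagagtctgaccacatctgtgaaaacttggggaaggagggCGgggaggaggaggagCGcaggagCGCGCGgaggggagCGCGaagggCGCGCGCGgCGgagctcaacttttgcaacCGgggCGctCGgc
Gata1, the master regulator of red cells, had 2 CG dinucleotides in this stretch and Gli3 had 34. The GC box bound by SP proteins, GGGCGG on either strand, was found in the windows of 10 of the 14 listed genes and 11 of the 16 others, in 61.8% of the 628 other genes with a region and in 49.2% of all protein-coding genes. The sequence AGATAA on either strand, to which the Gata proteins bind, was found in 1 of the 14 (Zic1), in 2 of the 16 (Fezf1 and Sp5) and in 11.2% of all. The core of the GLI site, GACCACCC on either strand, was in 0 of the 30 windows and in 0.875% of all. A match of letters is not a bound site.

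**Figure D5:**
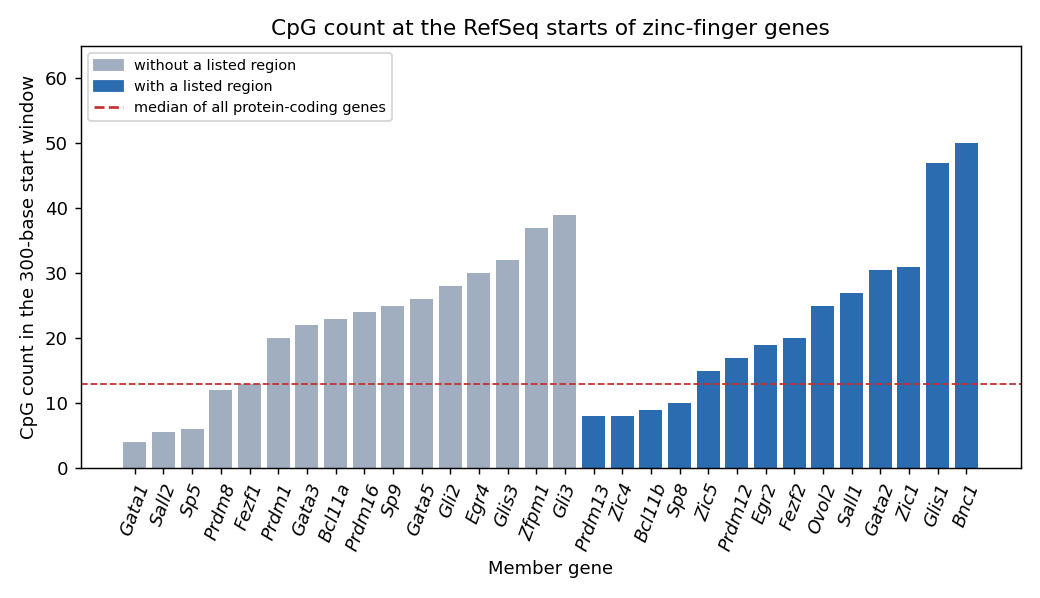
Bars give the CpG count (y axis) in the 300-base window at the RefSeq start of each of 30 zinc-finger genes (x axis), grey for the 16 genes without a listed region and blue for the 14 with one; where a gene has several windows the median is drawn. The dashed line is the median of all protein-coding genes, 13, and the bars reach 39 in the grey group and 50 in the blue group, with both groups starting below the line.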

How the data were processed

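ChIP-seq for H3K27me3 and its input library were mapped by the authors to mm9 and regions were called with QuEST, per the labels, with versions and thresholds not given in the sources used here. The deposited list holds whole-number tag counts of ChIP and input per region without normalization, a tag enrichment (their ratio, with the input raised to at least 9.20 tags per kb where it was lower), the signal height of the smoothed profile, a height ratio with the input set to at least 1, a q-value as −log10, and the distances to named genes. Region lengths include both end positions. From the list, members were matched by symbol, and the share of ChIP tags was given an exact 95% Clopper-Pearson interval, written as a ratio. The interval was checked only on tags simulated as independent draws, as it assumes. This check cannot show how well it covers real tags. With 1 library each, no test between samples was possible. Upstream, inside and downstream positions followed from the listed distances; for 4 genes, at least 2 regions placed the 5′ end at the same base. RefSeq (GRCm38.p6) gave the protein-coding genes for the background, to which 856 of the 922 names were matched, and start windows for 30 members; 16 had none (Gata4, Gata6, Zic2, Sall3, Sall4, Osr1, Osr2, Gli1, Glis2, Prdm6, Prdm14, Wt1, Egr1, Egr3, Insm1 and Ovol1). Every listed member is described. The members and gene lists were chosen with earlier results of these data known. Alternatives were overlap with the gene, a distance of at most 2500 bp from the 5′ end, a ChIP height of at least 10, a −log10 q-value at or above the median of 48.0, input below 2 times the floor, regions within 3000 bp merged, the nearest gene only, older symbols, the strongest region of a member and windows of 250 bases. The work used scipy 1.17.1, pandas 2.3.3, numpy 2.4.6 and matplotlib 3.10.9 in Python 3.11.15.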

Additional observations from a re-analysis of the deposited data

How the results depend on the processing

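With only regions overlapping the gene, 13 members and 16 regions remained; at a distance of at most 2500 bp from the 5′ end, 12 members and 14 regions; at a profile height of 10 or more, 4 members and 3 regions; and with a −log10 q-value at or above the median, 18 regions. Each of these limits keeps fewer regions by construction. The strongest region of Gata4 alone had a ratio of 14.8, against 8.24 over its 4 regions. Counting only the nearest gene left 20 members, without Gli1 and Zic1. The pooled ratio ran from 7.58 to 8.0. The limit of 2 times the floor on input and the older symbols could not change any value, since no region of the set had so high an input and 0 older symbols of the 46 genes stood in the list, and merging regions could not change the pooled ratio. Heights crowd just above the listing limit of 8, so the number of listed genes depends on where that limit was set. No paired analysis was possible because there was 1 library in each group.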

Other observations

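Within 30000 bp of their own regions, 6 of the 22 listed genes (27.3%) had a further region that did not name them, against 35.1% of the 900 other listed genes. At Gata4 there were 3, further upstream, with 120, 76 and 94 ChIP tags against 10, 10 and 6 input tags. Together with the 4 regions that named Gata4 they made 7 regions over 23424 bp (chr14:63858535-63881958, mm9), with 562 ChIP and 59 input tags and a ratio of 9.53 (95% Clopper-Pearson interval 7.28 to 12.7). At Sp8 a further region of 571 bp, 9123 bp from its listed region, had 40 ChIP and 2 input tags and a height of 11.0. At Gata2 a further region 1879 bp away had 70 and 23 tags, a ratio of 3.04 (1.88 to 5.11). At Zic2 a further region 12467 bp beyond its own had 97 and 17 tags. The remaining 2 genes were Gli1, with a further region that named Arhgap9, and Zic5, with one that named Gm5089 and also lay within 30000 bp of the region of Zic2.

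Among 75 other zinc-finger transcription factor genes, such as the Klf, Snai, Zeb, Ikzf and Tshz families, 5 were named by the list (6.67%, beside 3.90% of all protein-coding genes), by 9 regions. Casz1 had 4 regions inside the gene with 34, 32, 47 and 49 ChIP tags, all at least 35044 bp from the 5′ end. Gfi1, a factor of blood cells, had a region of 3464 bp with 155 ChIP and 29 input tags and another with 37 and 2. Sp6, an epithelial factor, had a region of 3138 bp with 154 and 27 tags, 2351 bp upstream. Ikzf3 and Scrt2 had 1 region each, with 76 and 26 ChIP tags. Of 14 genes for PRC2 subunits, H3K27 demethylases and trithorax proteins that were matched in RefSeq, 0 were named, and 14 genes are too few for this to be read against the share of 3.90%. Of the 24 members without a region, 4 had a neighbouring protein-coding gene that was named (Fezf1 beside Cadps2, Gata5 beside Slco4a1, Sp5 beside Myo3b and Sp9 beside Cir1), against 5.82% of the 21021 other protein-coding genes without a region. Of the 22 listed members 5 had a named neighbour (22.7%), against 44.2% of the other protein-coding genes with a region. In these 5, Zic1 and Zic4 neighboured each other, as did Zic2 and Zic5 (the latter also beside Clybl), and Gli1 lay beside Arhgap9, which was named by the same region.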
